A study of Mus musculus with 9 samples.

Results

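The TGF-beta and BMP feedback and ID genes are 9 transcripts of MC38 cells, a mouse colon carcinoma line: the inhibitors of DNA binding Id1, Id2 and Id3, the inhibitory SMADs Smad6 and Smad7, the pseudoreceptor Bambi, and the nuclear co-repressors Ski, Skil and Tgif1. They were taken by gene symbol from a table of 16509 genes, and all 9 passed the filter on low counts that left 11949 genes for testing. Messenger RNA was sequenced from control cells (Ctrl), from cells given copper chloride with cystine (Cu-Cys) and from cells given Cadict, in 3 libraries per group. Cadict is a nanodrug built from copper, cystine and glucose oxidase and carrying the GE11 peptide, which binds EGFR. Control cells received DMSO by the sample labels and PBS by the paper, and neither source gives a dose or a time of treatment for these libraries. All 3 groups were the parental line with no named genetic change. The paper says in general terms that its cell experiments were repeated independently, but does not say for these libraries whether the replicates were separate cultures, so p-values may measure only technical spread between libraries.

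TGF-beta and activin ligands signal through receptor kinases that phosphorylate Smad2 and Smad3, whereas BMP ligands use receptors that phosphorylate Smad1, Smad5 and Smad9, and both branches share Smad4. Of the genes described here, the ID genes are read as outputs, and the inhibitory SMADs, Bambi and the co-repressors act back on these branches. The ID proteins lack a DNA-binding region and hold E proteins in inactive dimers, and Id1, Id2 and Id3 are widely used readouts of BMP signalling. Smad6 and Smad7 block receptors and are induced by the signal they block, Bambi is a receptor without a kinase domain, and Ski, Skil (SnoN) and Tgif1 recruit histone deacetylases to SMAD complexes.

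Id1 is a gene of 2 exons on chr2:152736251-152737410 (GRCm38.p6, plus strand), with an intron of 226 bases at chr2:152736746-152736971 near the end of its coding sequence. RefSeq lists 3 curated transcripts of Id1, which were not compared here. GENCODE holds a spliced transcript of 934 bases that codes for 148 residues and an intron-containing transcript of 1160 bases that codes for 168 residues. The 2 forms are shown from 60 bases before the end of the coding part of exon 1 (lower case) to their stop codons, because a length measure of Id1 differed between groups; capitals mark the start of exon 2 in the spliced form and the start of the intron in the other.
Id1 spliced: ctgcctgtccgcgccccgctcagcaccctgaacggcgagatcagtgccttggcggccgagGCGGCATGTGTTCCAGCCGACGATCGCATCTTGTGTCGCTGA
Id1 intron-containing: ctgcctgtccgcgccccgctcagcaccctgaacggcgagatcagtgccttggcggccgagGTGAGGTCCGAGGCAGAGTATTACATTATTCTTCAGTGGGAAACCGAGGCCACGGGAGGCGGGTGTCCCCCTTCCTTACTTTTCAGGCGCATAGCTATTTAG

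RefSeq promoter windows, the 250 bases before a transcript start on GRCm38.p6, were matched for 5 of the 9 genes: Id2, Id3, Smad6, Ski and Tgif1. Those of Id2, Id3 and Smad6 are shown, since these genes of the BMP branch rose, missed the test's limit and fell, respectively, in Cadict-treated cells with TMM scaling. Capitals mark GGCGCC, the palindrome of BMP response elements, and CAGAC or its reverse complement GTCTG, the SMAD box. The windows lie at chr12:25096093-25096342 (minus strand) for Id2, chr4:136143572-136143821 (plus strand) for Id3 and chr9:64022086-64022309 (minus strand, 224 bases that end before the annotated gene) for Smad6.
Id2 promoter: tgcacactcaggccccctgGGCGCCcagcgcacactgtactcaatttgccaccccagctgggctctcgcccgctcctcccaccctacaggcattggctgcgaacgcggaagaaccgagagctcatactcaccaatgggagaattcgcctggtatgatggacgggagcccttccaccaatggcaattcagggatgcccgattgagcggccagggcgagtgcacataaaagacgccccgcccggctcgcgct
Id3 promoter: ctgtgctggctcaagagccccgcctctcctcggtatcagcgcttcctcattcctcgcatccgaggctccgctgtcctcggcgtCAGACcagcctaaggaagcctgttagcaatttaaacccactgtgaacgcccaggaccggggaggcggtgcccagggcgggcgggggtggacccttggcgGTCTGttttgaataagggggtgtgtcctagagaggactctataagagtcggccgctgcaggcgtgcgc
Smad6 promoter: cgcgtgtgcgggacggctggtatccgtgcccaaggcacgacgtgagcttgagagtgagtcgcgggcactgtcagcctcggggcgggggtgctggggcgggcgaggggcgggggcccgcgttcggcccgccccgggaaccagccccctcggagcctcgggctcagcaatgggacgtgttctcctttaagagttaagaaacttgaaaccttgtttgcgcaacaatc

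Of 32851 such windows, searched on both strands, 9.59% held GGCGCC and 42.2% held CAGAC. The windows of Id2 and Ski had 1 GGCGCC each, the Id3 window had 2 CAGAC, and that of Smad6 had neither. The 5 Tgif1 windows held 0 to 2 CAGAC. The E-box CACGTG, the CRE core TGACGT and the ATF4-C/EBP core TGATGCA, found in 6.02%, 6.47% and 2.68% of all windows, occurred in none of those of the 5 genes. The Ski window was 87.6% GC with 53 CpG, above 99.96% of windows, where the median was 52.4% GC and 6 CpG. Windows of Id2 and Id3 had 18 CpG each. The full Smad6 window of 250 bases, which runs into the gene, had 27 CpG, and the 224 bases shown hold 23 of them.

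Library totals were 17905771 to 18293056 counts, and the upper limit of 3 counts behind a listed 0 was 0.164 to 0.168 CPM (counts scaled to a common total; the limit covers counting error alone). The top 100 genes held 17.2% to 17.4% of counts in Ctrl, 17.9% to 18.2% in Cu-Cys and 29.8% to 31.1% in Cadict libraries, and edgeR's TMM factors were 1.26 to 1.27, 1.21 and 0.640 to 0.665. Scaling by library totals alone moved the median over all genes, on the log2 scale, by -0.95 for Cadict relative to Ctrl and by -0.88 relative to Cu-Cys, and among genes past the study's threshold it moved the share of higher ones from 43.3% to 11.9% in the former. Unless another scaling is named, each change is given on the TMM scale. The median gene of Cadict against Ctrl was itself at -0.13 there, and this value was not subtracted. Directions that turn with the scaling are named beside the gene. Of 9 colon epithelial markers, 7 are in the table, and they summed to only 4.83 to 6.86 TPM in Ctrl, 3.75 to 4.43 in Cu-Cys and 11.6 to 13.5 in Cadict libraries, with 4, 4 and 6 of them above 3 counts in any library. Epcam, Krt18 and Vil1 had at most 3 counts in every Ctrl library, whereas Cdh1 had 99 to 120 in Ctrl and 145 to 152 in Cadict libraries and Krt19 had 19 to 33 and 119 to 131. Lgals4 went the other way, with 8 to 19 counts in Ctrl and 0 to 4 in Cadict libraries, and Cdh1 was lower in Cu-Cys libraries (65 to 71). The fibroblast markers, Vim among them, summed to 3129 to 3264 TPM in Ctrl, 2741 to 2892 in Cu-Cys and 1168 to 1253 in Cadict libraries. Leukocyte markers summed to 6.89 to 7.47, 4.55 to 5.63 and 14.8 to 18.2 TPM, with Itgam at 3 counts or fewer throughout, and endothelial markers to 1.2 TPM or less. The part of these differences in the results was not tested. In bulk RNA, fewer cells with a transcript and less of it per cell cannot be told apart.

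The ID genes separated in Cadict-treated cells. Id1 fell, Id2 rose, and Id3 was near its Ctrl level on the TMM scale, where its call depended on the settings. In the 3 Ctrl libraries Id1 stood at 53.6, 52.9 and 52.4 TMM-scaled CPM, in the Cu-Cys libraries at 59.2, 58.4 and 56.2, and in the Cadict libraries at 13.2, 13.9 and 14.6. The Cadict libraries were far below both other groups, and the Cu-Cys libraries lay slightly above Ctrl without overlap. Against Ctrl, the log2 fold change of Id1 was -1.93 ± 0.066 (SE; 3.81-fold lower; adjusted p = 2.5e-13, edgeR quasi-likelihood test with Benjamini-Hochberg adjustment, as for all adjusted p-values of single genes here).

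Id2, whose product binds E proteins as Id1 does and also the retinoblastoma protein, had 3.46, 3.55 and 3.75 CPM in Ctrl, 5.44, 6.45 and 6.48 in Cu-Cys, and 11.5, 13.4 and 10.8 in Cadict libraries. The 3 groups stood in steps with no overlap on the TMM scale, whereas in FPKM the Cu-Cys (7.04 to 8.26) and Cadict libraries (7.54 to 9.03) overlapped. Id2 rose by 1.73 ± 0.12 on the log2 scale in Cadict against Ctrl (3.31-fold; adjusted p = 1.5e-09) and by 0.77 ± 0.12 in Cu-Cys against Ctrl (1.71-fold; adjusted p = 1.7e-04). Of its 50-base stretches, 0.329% also occur in the annotated gene Gm6175; the other 8 genes share none with another gene, and no annotated gene overlaps any of the 9.

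Id3 had 25.3, 25.7 and 25.3 CPM in Ctrl, 32.0, 34.0 and 35.9 in Cu-Cys, and 21.3, 23.6 and 25.4 in Cadict libraries. Only the Cu-Cys libraries stood clear of the others, and the highest Cadict library reached the Ctrl range. Id3 rose by 0.42 ± 0.067 on the log2 scale in Cu-Cys-treated cells (adjusted p = 1.7e-04). In Cadict against Ctrl its difference was -0.12 with a 95% interval of -0.28 to 0.044 (adjusted p = 0.156), a value that was 0.0018 with DESeq2 size factors and -1.07 with library totals. It passed, as lower, without Cadict replicate 3 (-0.18, adjusted p = 0.0474), with at least 10 counts required in every library (-0.18, adjusted p = 0.0356), with no filter on low counts (-0.20, adjusted p = 0.0283), with library totals (adjusted p = 1.1e-09) and with limma on FPKM or TPM.

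Per length, the makeup of the ID pool turned over. Id1 made up 65.8% ± 0.38 of the summed FPKM of the 3 ID genes in Ctrl (SD, n = 3), 60.7% ± 2.08 in Cu-Cys and 28.2% ± 0.83 in Cadict libraries. Id3 took 31.3% ± 0.28, 35.1% ± 1.74 and 53.6% ± 1.51 in the same order, and Id2 2.92% ± 0.13, 4.19% ± 0.39 and 18.2% ± 2.16. These shares do not depend on the scaling between libraries, although they rest on the authors' transcript lengths.

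**Figure D1:**
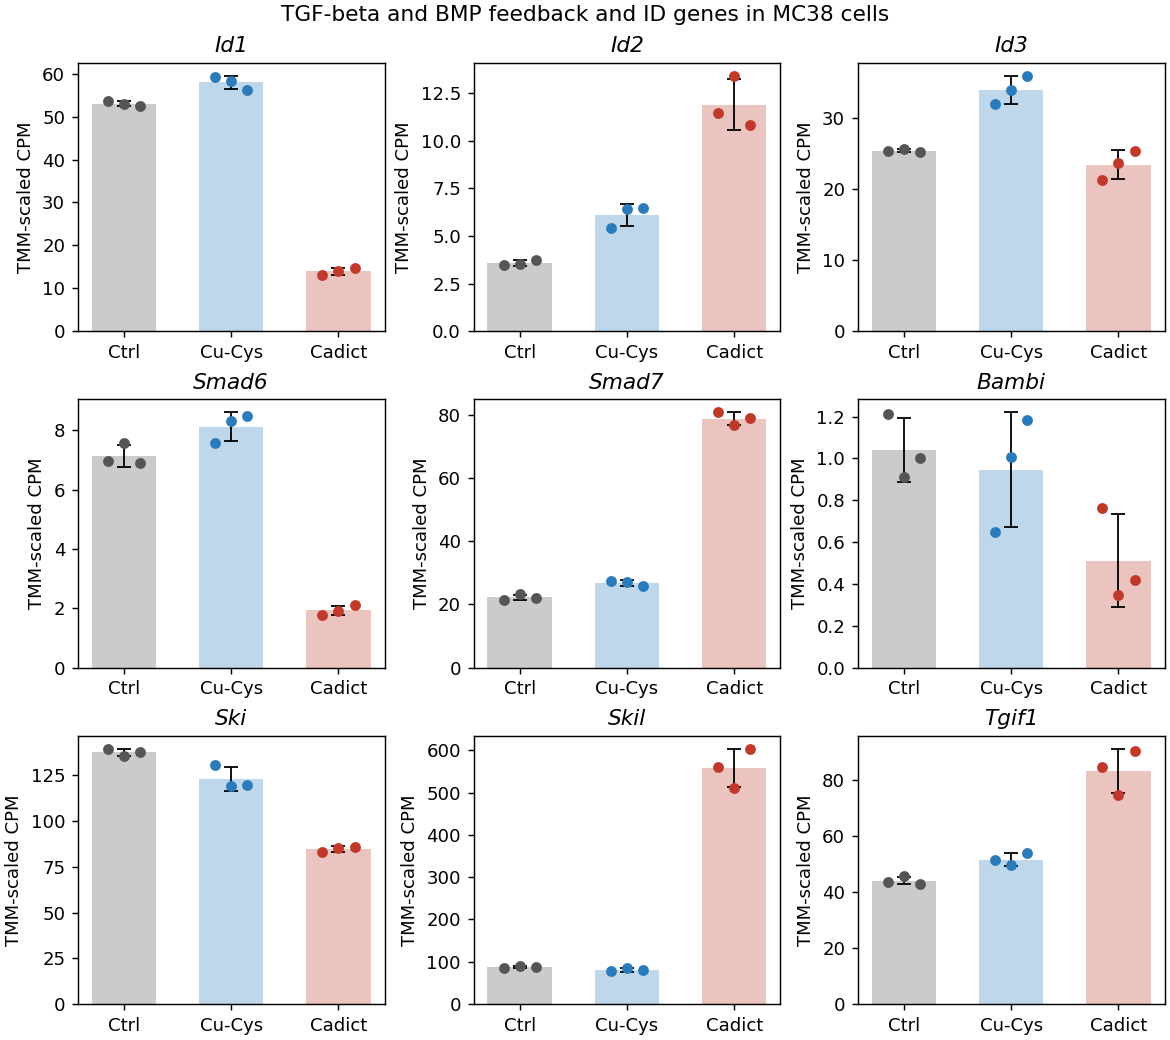
TMM-scaled CPM (y axis, from 0, a scale of its own in each panel) of the 9 genes in Ctrl, Cu-Cys and Cadict libraries; points are the 3 libraries, bars the mean and error bars the SD. Id1, Smad6 and Ski were lowest and Smad7 and Skil highest in the Cadict libraries, as were Id2 and Tgif1 on the TMM scale but not in TPM, whereas Id3 was highest in Cu-Cys libraries and Bambi was near 1 CPM or less in most libraries.

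The inhibitory SMADs moved apart as the ID genes did. Smad6, which acts mainly on BMP receptors, had 6.96, 7.58 and 6.89 CPM in Ctrl, 7.57, 8.32 and 8.48 in Cu-Cys, and 1.78, 1.92 and 2.1 in Cadict libraries (21 to 25 counts each). Cadict libraries lay well below the other groups, and Ctrl and Cu-Cys overlapped. Smad6 fell by 1.88 ± 0.14 on the log2 scale in Cadict against Ctrl (3.68-fold lower; adjusted p = 4.6e-09), and its value in Cu-Cys against Ctrl was 0.19 with an interval of -0.012 to 0.38 (adjusted p = 0.117).

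Smad7, which blocks both branches and brings ubiquitin ligases to TGF-beta receptors, went the other way. Its CPM was 21.5, 23.2 and 22.2 in Ctrl, 27.4, 27.3 and 25.9 in Cu-Cys, and 80.8, 76.7 and 78.9 in Cadict libraries. The Cadict libraries were highest by a wide margin, and Cu-Cys stood just above Ctrl without overlap. The log2 fold change against Ctrl was 1.82 ± 0.058 for Cadict (3.54-fold; adjusted p = 1.2e-13) and 0.27 ± 0.060 for Cu-Cys (1.20-fold; adjusted p = 0.00218). With library totals the value for Cadict was 0.87 and still passed.

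Bambi was close to the limit of detection, with 21 to 28 counts in Ctrl, 14 to 26 in Cu-Cys and 4 to 9 in Cadict libraries. In CPM, the Ctrl libraries stood at 1.21, 0.909 and 1.00, the Cu-Cys libraries at 0.646, 1.01 and 1.19, and the Cadict libraries at 0.765, 0.349 and 0.420. The Cadict libraries were below Ctrl without overlap but overlapped Cu-Cys. Bambi fell by 1.01 ± 0.37 on the log2 scale against Ctrl (adjusted p = 0.0192). This call was lost without Ctrl replicate 1 (adjusted p = 0.0586), Cadict replicate 2 (0.0799) or Cadict replicate 3 (0.0675), and with DESeq2's Wald test (0.0619).

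Among the co-repressors, Skil rose, Ski fell, and Tgif1 rose with TMM but not with library totals. Skil had 85.3, 90.4 and 88.5 CPM in Ctrl, 77.3, 85.1 and 79.8 in Cu-Cys, and 561.8, 511.7 and 602.5 in Cadict libraries. Cadict libraries were several-fold above all others, and Cu-Cys libraries lay just below Ctrl without overlap. Skil rose by 2.67 ± 0.064 on the log2 scale in Cadict against Ctrl (6.34-fold; adjusted p = 5.0e-15), a change that 397 of the 11949 tested genes (3.32%) exceeded. It remained 1.71 with library totals.

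Ski, the founding member of the family and a partner of Skil in the same SMAD complexes, had 139.4, 135.4 and 138.0 CPM in Ctrl, 130.6, 119.0 and 119.5 in Cu-Cys, and 83.1, 85.4 and 85.6 in Cadict libraries. The 3 groups stepped down without overlap. Ski fell, with log2 changes of -0.70 ± 0.052 in Cadict against Ctrl (1.62-fold lower; adjusted p = 3.0e-09) and -0.16 ± 0.049 in Cu-Cys against Ctrl (adjusted p = 0.0154).

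Tgif1, a homeodomain protein that joins Smad2 complexes, had 43.6, 45.5 and 42.9 CPM in Ctrl, 51.2, 49.4 and 53.9 in Cu-Cys, and 84.6, 74.4 and 90.2 in Cadict libraries. These steps upward did not overlap on the TMM scale. Tgif1 rose by 0.92 ± 0.069 on the log2 scale in Cadict against Ctrl (adjusted p = 3.4e-09), but the value turned to -0.035 with library totals (adjusted p = 0.662), so its rise holds relative to the typical gene only. In Cu-Cys-treated cells it rose by 0.23 ± 0.068 (adjusted p = 0.0136).

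In Cadict against Ctrl, 4 of the 9 genes rose (Id2, Smad7, Skil and, with TMM but not with library totals, Tgif1) and 4 fell (Id1, Smad6, Ski and Bambi) at the adjusted p limit of 0.05. By this rule 40.6% of the tested genes rose and 47.1% fell (87.7% in all), so a call alone sets none of the 9 apart. At the study's threshold, a fold of 2 or more with an adjusted p no higher than 0.001, Id2, Smad7 and Skil were higher and Id1 and Smad6 lower, where 20.7% and 27.1% of all genes were called higher and lower (47.8% in all). With library totals, 1 was higher at this threshold (Skil) and 5 were lower (Id1, Id3, Smad6, Ski and Bambi), where 828 and 6148 of the 11949 tested genes were. The log2 values of Id2 and Smad7 were 0.77 and 0.87 on that scale, below a fold of 2. Groups did not overlap for 8 of the 9 genes, as for 87.5% of all. Over the 9 genes the median change (log2) was -0.12, beside -0.13 for all genes, with values from -1.93 for Id1 to 2.67 for Skil.

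**Figure D2:**
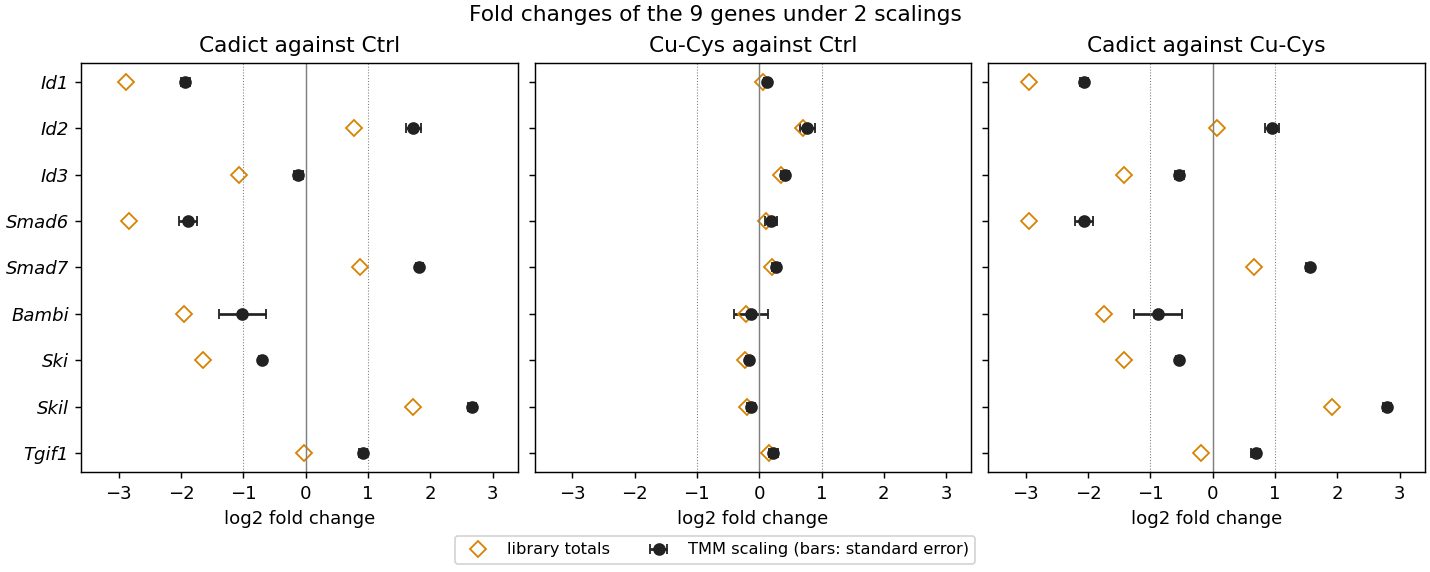
Log2 fold change (x axis) of each gene in the 3 comparisons, with TMM scaling (filled circles, bars are the standard error) and with library totals (open diamonds); dotted lines mark a fold change of 2. In both Cadict comparisons the library-total values lie to the left by a similar amount for each gene, which carries Tgif1 across 0, while in Cu-Cys against Ctrl the 2 scalings nearly coincide.

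Under Cu-Cys alone, which supplies copper and cystine without glucose oxidase or GE11, no change among the 9 genes reached a fold of 2. Id2, Id3, Smad7 and Tgif1 rose and Ski fell, 5 of the 9, where 22.6% of all genes rose and 22.4% fell (45% in all). None of the 9 reached the study's threshold, which 0.167% of all genes passed upward and 1.47% downward (1.64% in all). At an unadjusted p of at most 0.05 by the same edgeR test, 6 of the 9 passed, with Id1 added (log2 fold change 0.13 ± 0.052, adjusted p = 0.0540). By that rule 6277 of the 11949 tested genes passed. DESeq2's Wald test also put none of the 9 past the study's threshold. Groups did not overlap for 7 of the 9 genes, as for 61.2% of all.

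The rise of Id2 was the largest among the 9 in this comparison, and 186 of the 11949 genes (1.56%) rose further. Skil, at -0.13 with an interval of -0.26 to 0.0091 (adjusted p = 0.119), and Bambi, at -0.14 with an interval of -0.72 to 0.45 (adjusted p = 0.719), did not pass. The median over the 9 genes was 0.19, beside 0.0067 for all genes. The calls of Ski and Tgif1 were lost without Ctrl replicate 1, Ctrl replicate 3 or Cu-Cys replicate 3, which left Id2, Id3 and Smad7 as the only 3 called. That of Ski was also lost without Cu-Cys replicate 2 (adjusted p = 0.0694), while Id1 passed without Cadict replicate 2 or 3 and Skil without Cadict replicate 2 (adjusted p = 0.0207, 0.0371 and 0.0231). Tgif1 also missed the limit with library totals (0.16, adjusted p = 0.0968), whereas Skil passed, as lower, with library totals (-0.19, adjusted p = 0.0337) and Id1 passed, as higher, with DESeq2 size factors (0.16, adjusted p = 0.0229).

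Between Cadict and Cu-Cys, which share copper and cystine, Id2, Smad7, Skil and Tgif1 rose with TMM and Id1, Id3, Smad6, Ski and Bambi fell, where 40.3% of all genes rose and 45.6% fell (85.9% in all). Smad7 and Skil were higher and Id1 and Smad6 lower at the study's threshold, which 18.6% and 23.6% of all genes passed (42.2% in all). The log2 fold changes were 2.79 ± 0.065 for Skil, 1.55 ± 0.057 for Smad7, -2.06 ± 0.066 for Id1 and -2.07 ± 0.14 for Smad6 (all with an adjusted p of at most 1.3e-09). Id3 fell by 0.54 ± 0.074 (adjusted p = 5.5e-06), from a Cu-Cys level above that of Ctrl. Groups did not overlap for 8 of the 9 genes, as for 85% of all, and the exception was Bambi (-0.88 ± 0.38, adjusted p = 0.0436), whose call was lost without Ctrl replicate 3, Cu-Cys replicate 2 or 3, or Cadict replicate 2 or 3 (adjusted p of 0.0536 to 0.153) and with DESeq2 size factors (0.0687) and its Wald test (0.108). The value of Tgif1 was 0.69 with TMM and -0.19 with library totals, and that of Id2 was 0.96 with TMM and 0.072 with library totals.

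Ratios of 2 counts within a library are free of the scaling between libraries, so related genes were also compared in this way over 18 pairs of ratio and comparison. The count ratio of Smad7 to Smad6 was 3.09, 3.06 and 3.22 in Ctrl, 3.62, 3.27 and 3.05 in Cu-Cys, and 45.3, 40.0 and 37.6 in Cadict libraries. It was 13.1-fold higher in Cadict than in Ctrl libraries (log2 difference 3.71; exact two-sided permutation test, p = 0.1, adjusted p = 0.1125), and no smaller p is possible with 3 libraries against 3. The difference was many times the spread between libraries, whose SD on the log2 scale was 0.038 in Ctrl and 0.14 in Cadict.

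Skil to Ski went from 0.612, 0.668 and 0.641 in Ctrl and 0.592, 0.715 and 0.668 in Cu-Cys to 6.76, 5.99 and 7.03 in Cadict libraries. Skil thus passed from the less to the more counted of the pair, a 10.3-fold change of the ratio against Ctrl. Id1 to Id2 was 14.0 to 15.5 in Ctrl, 8.68 to 10.9 in Cu-Cys and 1.04 to 1.35 in Cadict libraries, with a log2 difference of -3.66 between Cadict and Ctrl. Id1 to Id3 was 2.06 to 2.12, 1.57 to 1.85 and 0.576 to 0.618, with a difference of -1.81.

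Tgif1 to Skil was 0.485 to 0.511 in Ctrl, 0.581 to 0.676 in Cu-Cys and 0.145 to 0.151 in Cadict libraries, so Tgif1 rose in Cu-Cys and fell in Cadict libraries relative to Skil. In Cadict against Ctrl each of the 6 ratios separated the groups fully at the smallest p of 0.1 (exact permutation test). In Cu-Cys against Ctrl those of Smad7 to Smad6 (log2 difference 0.083, exact p = 0.4) and of Skil to Ski (0.036, exact p = 0.8) overlapped, and the other 4 did not overlap. The share of other gene pairs whose ratios separate was not computed. Among single genes, groups did not overlap for 87.5% in Cadict against Ctrl and for 61.2% in Cu-Cys against Ctrl. Full separation alone is therefore not taken as a trait of these pairs.

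**Figure D3:**
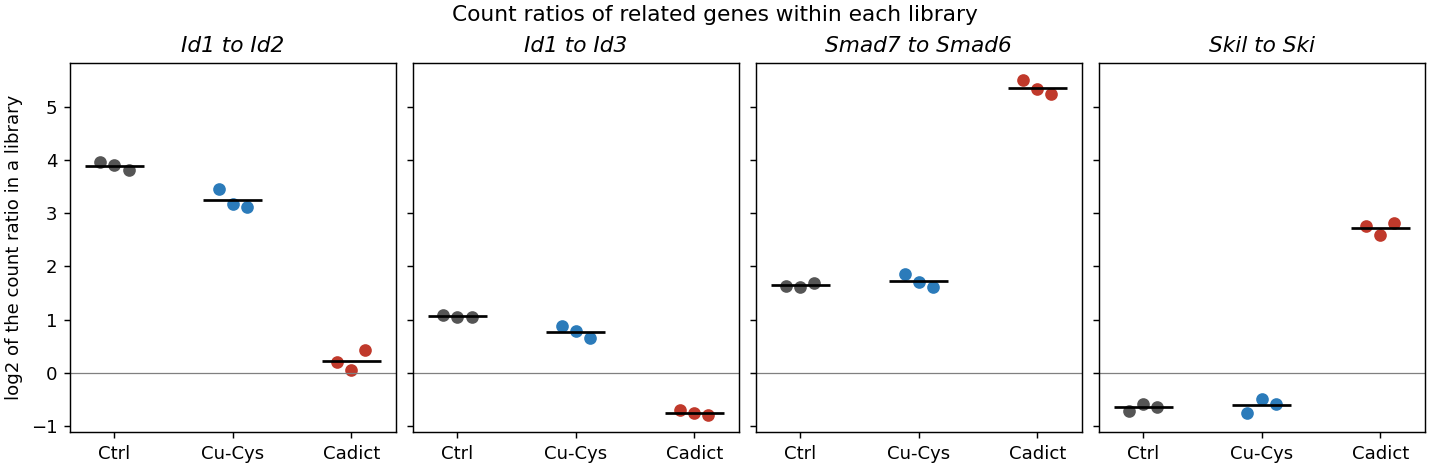
Log2 of the ratio of 2 genes' counts within each library (y axis) for 4 pairs of related genes, with 1 point per library and a line at the group mean. Cadict means differ from Ctrl by 3.71 for Smad7 to Smad6, 3.36 for Skil to Ski, -3.66 for Id1 to Id2 and -1.81 for Id1 to Id3.

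Ranked by FPKM, a level per transcript length, the genes stood in one order in both Ctrl and Cu-Cys libraries. The order began with Id1 (109.2 and 113.5 in Ctrl and Cu-Cys), Id3 (51.9 and 65.7), Tgif1 (42.5 and 47.0) and Ski (34.1 and 29.1). It went on with Skil (17.7 and 15.3), Smad7 (7.56 and 8.85), Id2 (4.84 and 7.83), Smad6 (3.48 and 3.76) and Bambi (0.773 and 0.667). In Cadict libraries Skil led at 56.7 FPKM, followed by Tgif1 (41.5), Id3 (24.2), Smad7 (14.6), Id1 (12.7), Ski (10.9), Id2 (8.17), Smad6 (0.493) and Bambi (0.193). No neighbours in any of the 3 orders overlapped between their lowest and highest libraries. Id1 thus left the top of the order and Skil took it.

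Counts and FPKM of Id1 did not move in step. Dividing a gene's count by its FPKM and by the library total, in the units of FPKM, gives the effective length that the authors' estimate used, which for Id1 was 614 ± 4.71 bases in Ctrl (SD, n = 3), 616.5 ± 11.8 in Cu-Cys and 715.5 ± 10.2 in Cadict libraries. The Cadict libraries (703.7 to 721.5 bases) lay clear of the Ctrl libraries (608.9 to 617.4 bases), a rise of 101 bases or 16.5% (exact two-sided permutation test, p = 0.1, the smallest possible). The intron whose start is printed above has 226 bases, and whether it bears on this rise was not tested. The effective-length measure was chosen after the values were seen.

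A rise as large as that of Id1 occurred in 0.604% of the 8776 genes with enough counts for it, whose median change was 0.447% (5th to 95th percentile, -6.06% to 4.38%), although 63.1% of genes had groups that did not overlap. The changes of Id2 and Id3 were 1.39% and 2.03%, those of Smad7 and Skil -5.26% and 2.18%, and those of Ski and Tgif1 -0.28% and -0.013%, while Smad6 and Bambi were below the limits for this measure. Relative to Id3 in the same library, the Id1 length went from -5.75 bases in Ctrl to 82.7 bases in Cadict libraries. Effective lengths come from the authors' division of reads among annotated transcripts, and the reads over the intron were not analysed here. On the FPKM scale the log2 differences of Id1 to Id2 and of Id1 to Id3 in Cadict against Ctrl became -3.86 and -2.0, further from 0 than on the count scale.

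**Figure D4:**
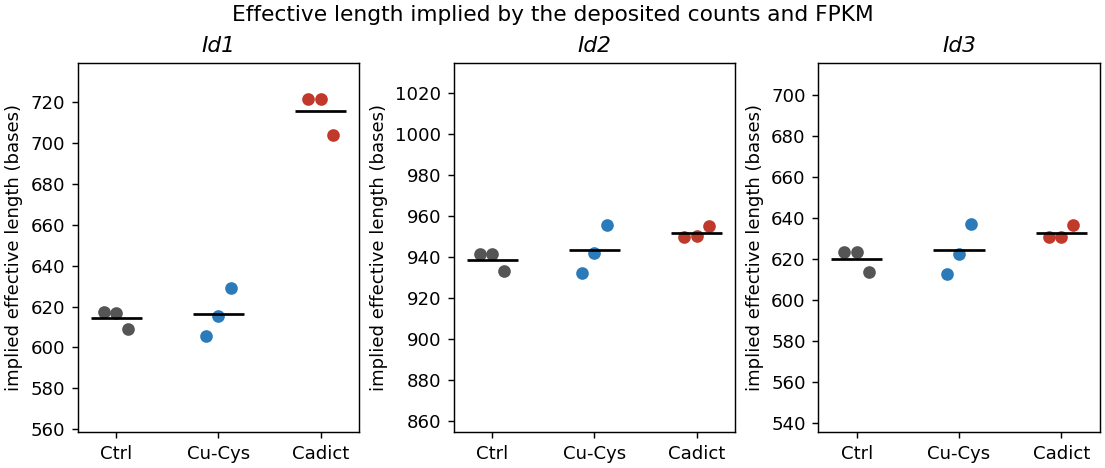
Effective length in bases implied by the deposited counts and FPKM (y axis, a range of 180 bases in each panel, not from 0) for Id1, Id2 and Id3, with 1 point per library and a line at the group mean. The 3 Cadict libraries of Id1 stand at 703.7 to 721.5 bases, above 608.9 to 617.4 bases in Ctrl, whereas the Id2 and Id3 means change by 1.39% and 2.03%.

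The rest of the pathway was described with 8 lists of 134 genes, of which 124 are in the table and 102 were tested. In Cadict against Ctrl 45 of the 102 rose and 44 fell with TMM, where 40.6% of all genes rose and 47.1% fell. With library totals 22 rose and 71 fell, where 18.1% and 73.1% of all genes did. In Cu-Cys against Ctrl 19 rose and 31 fell, where 22.6% and 22.4% of all genes did. The same shares of all genes stand behind the counts of each list below. The median of each list is given beside the -0.13 of all genes and describes these libraries only.

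Upstream of the 9 genes are the receptors and their ligands. Of 12 receptors and co-receptors, 8 fell and 2 rose in Cadict-treated cells (median -1.40). Tgfbr2, the TGF-beta type II receptor, fell by 2.29 ± 0.076 on the log2 scale, from 63.4 to 12.99 CPM on average. The log2 fold change was -2.40 ± 0.11 for the co-receptor Tgfbr3 and -2.51 ± 0.13 for the activin receptor Acvr1b. Those that rose were Acvr1, a BMP receptor (2.17), and Tgfbr1 (1.17), and the BMP receptors Bmpr1a and Bmpr2 did not pass, at -0.089 and -0.047. These 4 receptors, Smad1, Smad2, Tgfb2, Bmp6, Gdf9, Gdf11, Inha, Atoh8 and Id4 fall outside the naming rule and were picked after their values were seen. Tgfbr2 and Tgfbr3 also fell in Cu-Cys-treated cells, by 0.59 and 0.71, whereas Acvr1b did not pass there (-0.12, adjusted p = 0.258).

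Of 10 ligands, 5 rose (Gdf15, Inhba, Tgfb2, Bmp6 and Gdf9) and 3 fell (Tgfb3, Gdf11 and Inha), with a median of 0.86 that became -0.093 with library totals. Gdf15, a stress-induced relative of the family, rose by 5.51 ± 0.087, from 2.31 to 105.8 CPM, but had fallen by 0.80 in Cu-Cys-treated cells. Inhba, which forms activin A, rose by 1.66 ± 0.090, and Tgfb3 fell by 3.90 ± 0.13. Each of the 5 receptor-regulated and common SMADs tested fell in Cadict-treated cells: Smad3 by 1.76 ± 0.066, Smad5 by 1.46 ± 0.057, Smad4 by 0.65 ± 0.052, Smad2 by 0.26 and Smad1 by 0.16 (median -0.65). With DESeq2 size factors 4 of them fell. Smad3 also fell in Cu-Cys-treated cells, by 0.40 ± 0.056.

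The 12 extracellular antagonists were mixed (5 rose and 4 fell, median 0.040, or -0.91 with library totals). Ltbp1, which stores latent TGF-beta in the matrix, rose by 1.44 ± 0.049 and the BMP-binding Twsg1 fell by 1.36 ± 0.057, while the activin antagonist Fstl3 was at 0.76 with TMM and at -0.19 with library totals. Of 17 intracellular regulators, 10 rose and 5 fell (median 0.49, or -0.47 with library totals). Pmepa1, a TGF-beta target that sequesters SMADs, rose by 3.00 ± 0.064 in Cadict-treated and by 0.83 ± 0.064 in Cu-Cys-treated cells. The ubiquitin ligase Nedd4l rose by 2.89 ± 0.059 and by 0.37 ± 0.059 in the same order. Tgif2, the paralog of Tgif1, fell by 1.84 ± 0.096 in Cadict-treated cells, the opposite side of 0 from Tgif1 on the TMM scale.

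Among 21 other TGF-beta and BMP target genes, 12 rose and 7 fell in Cadict-treated cells (median 0.58, or -0.37 with library totals). The prostaglandin synthase Ptgs2 rose by 4.85 ± 0.10, the matricellular Ccn2 by 3.88 ± 0.074 and the cell cycle inhibitor Cdkn1a by 2.85 ± 0.052, and in Cu-Cys-treated cells these rose by 1.14, 0.91 and 0.42. Atoh8, a BMP target, had 33 to 54 counts in Ctrl and 0 in each Cadict library, which makes it at least 6.94-fold lower when 3 counts are set in each of the latter.

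The partners of the 9 proteins showed no single direction with TMM. Of 11 E proteins and other ID partners, 6 rose and 5 fell (median 0.58, or -0.37 with library totals). The E protein gene Tcf3 fell by 1.88 ± 0.059, and the ETS factors Elk4 and Ets1 rose by 1.82 ± 0.11 and 1.21 ± 0.054. Id4, the fourth ID gene, rose by 1.18 at 1.87 CPM in Cadict against 0.824 in Ctrl libraries. Of 14 co-repressor partners of SKI and TGIF, 5 rose and 7 fell with TMM (median -0.21). With library totals 0 rose and 12 fell (median -1.16), where 18.1% of all genes rose and 73.1% fell. Sin3a was lower by 1.29 ± 0.058 with TMM. Ctbp2, of the CtBP co-repressors that Tgif1 recruits, was higher by 1.01 ± 0.051 with TMM and by 0.056 with library totals.

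**Figure D5:**
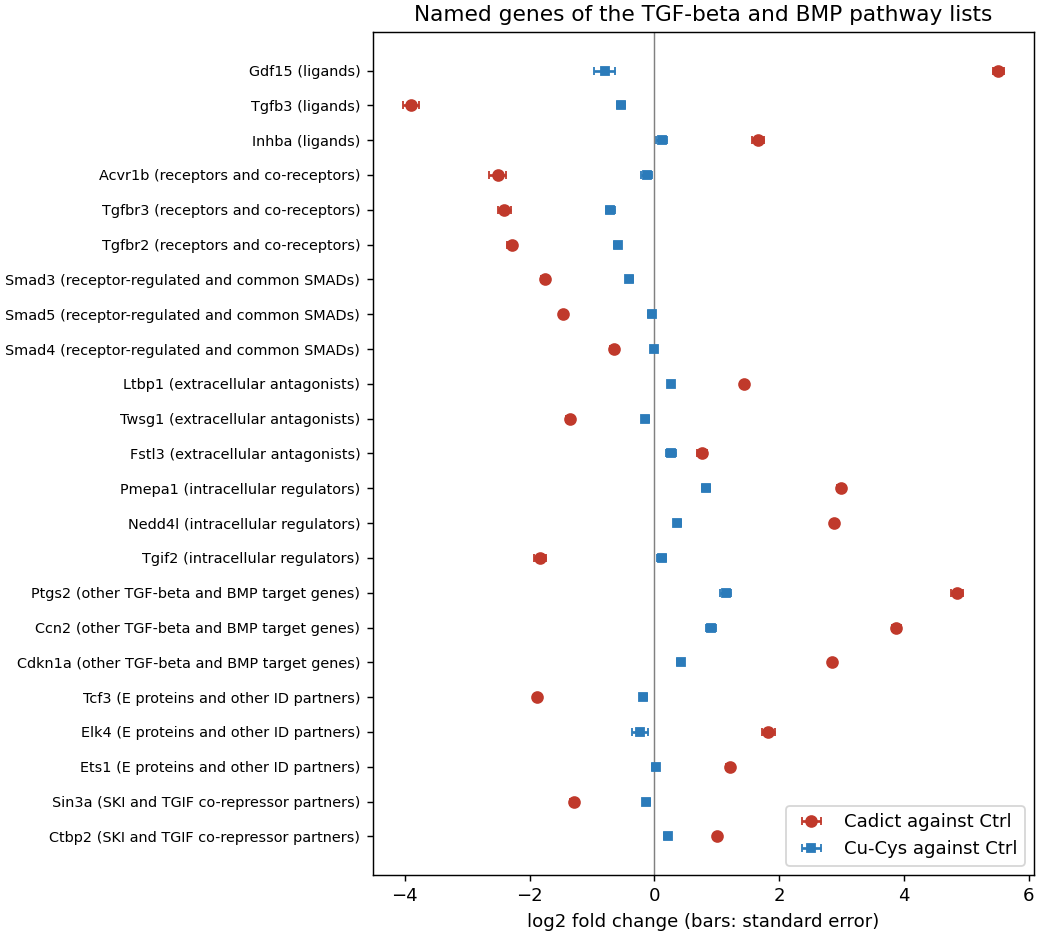
Log2 fold change (x axis, bars are the standard error) in Cadict against Ctrl (circles) and Cu-Cys against Ctrl (squares) of 23 genes that the naming rule took from the 8 pathway lists, with the list in brackets. Cadict values run from -3.90 for Tgfb3 to 5.51 for Gdf15, and Cu-Cys values from -0.80 for Gdf15 to 1.14 for Ptgs2.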

How the data were processed

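Messenger RNA of 9 MC38 libraries (3 each of Ctrl, Cu-Cys and Cadict) was analysed from a single table in which the authors deposited, for each gene and library, an expected count (unnormalized, estimated per gene), an FPKM and a TPM. The submitters' processing notes name HISAT2 2.1.0, Bowtie2 2.3.4.3 and RSEM 1.3.1 and the builds GRCm39 and GRCh38.p13, without roles. RNA was extracted with TRIzol and read on an Illumina instrument per the paper, but with a column kit and as DNA nanoballs per the labels. Columns named CC were read as Cu-Cys by its initials, and those named CCGE as Cadict by its components (an inference); 21 further columns, counts divided by size factors and group averages, were not used. Sequences and coordinates came from RefSeq and GENCODE M21 on GRCm38, another build than the authors may have used.

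Expected counts were rounded and fitted in R 4.3.3 with edgeR 4.0.16 (filterByExpr by group, TMM, 1 quasi-likelihood model over the 3 groups), with Benjamini-Hochberg adjustment over 11949 genes; rose and fell mean an adjusted p of at most 0.05. The study's threshold was taken from its methods, which used DESeq. Ratios within libraries were tested by exact two-sided permutation. Effective lengths used genes with at least 20 counts and 1 FPKM in each library. The 9 genes and the pathway lists were chosen with earlier results of these data known. The naming rule took all 9 genes, the 3 largest changes of each list in Cadict against Ctrl among genes of at least 10 CPM on average, and the 2 genes nearest in profile to each of the 9, of which 1 list gene is counted but not reported here. Alternatives were DESeq2 1.42.0 size factors and Wald test, library totals, other filters, a replicate block, limma 3.58.1 on log2 FPKM and TPM, FPKM ratios and leaving out each library. The edgeR fit was tested on simulated counts with changes drawn in equal number up and down. Of 194 changed genes among 11740 tested, it called 192 in the right direction, and it called 12 unchanged genes. With so few and such balanced changes, this does not test the choice of scaling on which some calls depend.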

Additional observations from a re-analysis of the deposited data

How the results depend on the processing

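The TMM calls of Id1, Smad6, Smad7, Skil and Ski in both Cadict comparisons, and of Id2 in Cadict against Ctrl, kept their direction and passed under every alternative run. Values that turned sign in Cadict against Ctrl were those of Id3 (0.0018 with DESeq2 size factors and with its Wald test) and Tgif1 (-0.035 with library totals, -0.040 and -0.041 with limma on FPKM at pseudocounts of 1 and 0.1, -0.38 on TPM). In Cadict against Cu-Cys they were those of Tgif1 (-0.19 with library totals, -0.18 with limma on FPKM at both pseudocounts, -0.45 on TPM) and Id2 (-0.20 on TPM). In Cu-Cys against Ctrl they were those of Id1 (-0.017 on TPM), Bambi (-0.33 to 0.067 over the libraries left out, above 0 without Cu-Cys replicate 1) and the log2 ratio of Skil to Ski (-0.0255 without Cu-Cys replicate 2, 0.11 without Cu-Cys replicate 1). Ratios of FPKM in place of counts moved 4 ratios with Id1 by more than the spread between libraries: Id1 to Id2 was -3.86 against Ctrl and -3.22 against Cu-Cys in Cadict libraries, and Id1 to Id3 -2.0 and -1.72. By construction these shifts follow from the implied effective lengths, and why the Id1 length rose was not tested. In Cu-Cys against Ctrl, 5 of the 9 genes met the 0.05 limit, where 45% of all genes did, and 3 to 7 met it when 1 library was left out. The share of all genes at this limit is not given for the latter fits. By unadjusted p under 0.05 in the edgeR test, 6277 of all genes passed in the full fit, and 5460 to 7180 with 1 library left out. The number of all genes past the study's threshold in that comparison was 196, against 71 with limma on FPKM at a pseudocount of 1 and 117 on TPM. Bambi could not be tested with at least 10 counts required in every library.

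The labels give the groups the same replicate numbers, but deviations of same-numbered libraries correlated at only -0.19 to 0.16 over 8551 genes (2 of 9 pairs over 0.1), and 4 of 9 libraries correlated best with their own number, so the numbers were not taken as pairs. With a replicate block, 8, 5 and 8 of the 9 genes met the 0.05 limit (Cadict against Ctrl, then Cu-Cys against Ctrl, then Cadict against Cu-Cys). Without the block, 87.7%, 45% and 85.9% of all genes met it in the same order, and their share with the block is not given. The study's threshold is stricter, so its counts of all genes with the block (5685, 183 and 5019) are no background for those of the 9. Bambi alone lost its call, in the last comparison (adjusted p = 0.0592).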

Other observations

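For each of the 9 genes, the genes with the nearest profile were those with the smallest root mean square difference in log2 CPM, centred on the Ctrl mean, over the 9 libraries and about 8550 genes of at least 10 CPM on average. Id1 lay nearest to Fam149a (0.045) and Dpp3 (0.053), and Skil to Pmaip1 (0.057) and Ubap1 (0.088). Smad7 lay nearest to Xpot (0.040) and Fkbp4 (0.045), and Smad6 to Chpf (0.072) and Arhgap39 (0.079). The nearest to Id2 were Rabggtb (0.087) and Rrp9 (0.10), and those to Id3 were Cox10 (0.061) and Rbm15b (0.068). Ski had Nt5c2 (0.043) and Ppil2 (0.054), Tgif1 had Ezr (0.060) and Gga2 (0.062), and Bambi, the least counted, had Zmym5 (0.14) and Rev3l (0.15). None of these 18 genes is on a pathway list, and the distances describe 9 libraries only.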
